A study of Mus musculus with 6 samples.

Results

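Receptor tyrosine kinases other than Kit and Flt3 were compared between acute promyelocytic leukemia (APL) progenitors and normal myeloid progenitors (MPs) of the mouse. The 9 receptors were chosen by gene name: Mst1r, Met, Igf1r, Insr, Fgfr1, Tek, Axl, Mertk and Tyro3. Each had 1 row among the 16440 genes of the expression table, and all 9 passed the filter on low values. The comparison set the loss of Mst1r beside the levels of other receptor kinases.

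RNA was sequenced from 6 libraries, 3 for each group, which the study describes as biological replicates. The published methods do not say whether the 3 APL libraries came from separate leukemias or from recipients of the same one. The MPs were Lin-Sca-1-c-Kit+ bone marrow cells of normal FVB N/J mice. The APL progenitors, also FVB N/J, were sorted as GFP-labeled c-Kit+ leukemic cells. They came from the hMRP8-PML/RARα model, in which a human myeloid promoter drives the fusion gene, and had been given GFP by a retroviral vector and expanded in syngeneic recipients. For the labeling, the study describes culture with cytokines and transfer into sublethally irradiated mice. Label, culture, irradiation, passage, sort gates and leukemia therefore differed together between the groups and cannot be told apart. The study gives an age range for transplant recipients, but no age for the normal mice. Unscaled totals lay between 20608727 and 28382761 fragments per library. Early myeloid marker genes, which include Mpo and Elane, summed to 8540 to 9615 FPKM (fragments normalized to transcript length and library size) in the MPs and to 22961 to 27425 in the APL progenitors, although Cd34 was 79.5-fold lower in the latter and Kit, on which both groups were sorted, 1.8-fold lower. In bulk samples, fewer cells of a type and less RNA per cell cannot be told apart.

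A receptor tyrosine kinase binds a ligand outside the cell, pairs with a second receptor and phosphorylates tyrosines inside the cell, where adaptor proteins dock and start the RAS/ERK and PI3K pathways. The 9 receptors fall into families. Mst1r (also called Ron or Stk) and Met are sister receptors for the kringle growth factors Mst1 (macrophage-stimulating protein) and Hgf. Insr and Igf1r bind insulin and insulin-like growth factors, Fgfr1 binds fibroblast growth factors, and Tek (Tie2) binds the angiopoietins. Axl, Mertk and Tyro3 form the TAM family, whose ligands Gas6 and Pros1 link them to phosphatidylserine on dying cells.

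Of the 9 receptors, 5 were called lower and 1 higher in APL progenitors (limma, adjusted p under 0.05 and a fold change over 1.5), and 3 were not called. Among all 14595 genes tested, 24.4% were lower and 21.7% higher. The 2 groups did not overlap for 7 of the 9 receptors, against 70.9% of all genes tested. The median log2 fold change of the 9 was -1.33, and -0.94 without Mst1r, beside -0.10 for all genes tested. The first median is the value of Mertk itself, and the second lies between Mertk and Met (-0.55). Mertk had at most 4 fragments in any library, so both medians rest on a gene at the limit of detection. Mst1r was listed because it was lost in these data, so its own difference is described here and is not support for a pattern.

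Mst1r, a receptor of macrophages whose truncated form is known from erythroid progenitors, had the highest mean FPKM of the 9 in MPs, with a range that overlapped that of Igf1r. Its gene (identifier 19882) lies on GRCm38 at chr9:107906889-107920383. The 3 MP libraries held 902, 1033 and 1336 scaled fragments (fragments rescaled so that libraries are comparable), and the 3 APL libraries held 4.71, 10.4 and 6.17. These APL values stood for 4, 12 and 5 fragments before scaling, so every APL library lay above the floor of 3 fragments but close to it. The groups were far apart: in FPKM the mean was 9.09 ± 1.66 (SD, n = 3) in MPs and 0.059 ± 0.0238 (SD, n = 3) in APL progenitors, a ratio of 154 to 1. The log2 fold change on log2(scaled fragments + 1) was -7.12 with an SE of 0.27. Among the 36 receptor tyrosine kinases tested it was the most negative fitted value, and 0.473% of all genes tested had a lower one.

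The promoter of Mst1r is shown because the comparison turns on this gene, with that of its ligand gene Mst1 and that of Tek, both added after their values were seen. The sequences are RefSeq windows on GRCm38.p6 that run from 250 bases before to 50 bases after an annotated transcript start, all on the plus strand. Capitals mark the 1 match found in each window to 3 motifs, each searched on both strands, and no matches overlapped. The letters AGGTCA are the core element bound by retinoic acid receptors, to which PML is fused in this model. The motif of the erythroid and stem cell factors of the GATA family was searched as AGATAA. The core of ETS factors was searched as CCGGAA and is read from the opposite strand in the Mst1 window.
Mst1r, chr9:107906639-107906938: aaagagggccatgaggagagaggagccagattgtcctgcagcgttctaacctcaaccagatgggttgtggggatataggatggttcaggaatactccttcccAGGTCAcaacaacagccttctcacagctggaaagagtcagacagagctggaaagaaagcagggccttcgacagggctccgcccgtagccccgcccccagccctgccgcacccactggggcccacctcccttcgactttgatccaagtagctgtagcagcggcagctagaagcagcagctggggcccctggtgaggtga
Mst1, chr9:108080186-108080485: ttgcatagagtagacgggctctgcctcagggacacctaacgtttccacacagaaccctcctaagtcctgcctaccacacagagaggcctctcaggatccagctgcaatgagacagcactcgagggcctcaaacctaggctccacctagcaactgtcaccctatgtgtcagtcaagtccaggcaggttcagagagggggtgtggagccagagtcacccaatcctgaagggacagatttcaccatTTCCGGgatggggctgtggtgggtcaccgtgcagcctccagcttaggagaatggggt
Tek, chr4:94739039-94739338: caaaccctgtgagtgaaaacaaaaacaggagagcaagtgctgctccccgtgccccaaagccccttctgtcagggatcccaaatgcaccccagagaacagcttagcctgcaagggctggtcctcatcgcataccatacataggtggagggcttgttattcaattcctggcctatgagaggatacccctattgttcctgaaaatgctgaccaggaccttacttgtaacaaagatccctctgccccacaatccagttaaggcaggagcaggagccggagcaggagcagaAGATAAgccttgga

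The Mst1r match began 148 bases before the transcript start of its window, the Mst1 match 7 bases before and the Tek match 36 bases after. Promoter windows matched 7 of the 9 receptors. Of these, Igf1r also held AGGTCA, on the opposite strand and 86 bases before its start, while the first windows of Met, Axl, Mertk and Tyro3 held none of the 3 motifs. A second promoter of Mst1r at chr9:107914753-107915052 held none either. These letters are common: AGGTCA was in 16.3%, AGATAA in 11.2% and CCGGAA in 14.9% of 32851 promoter windows of the same length. A match describes the sequence only.

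**Figure D1:**
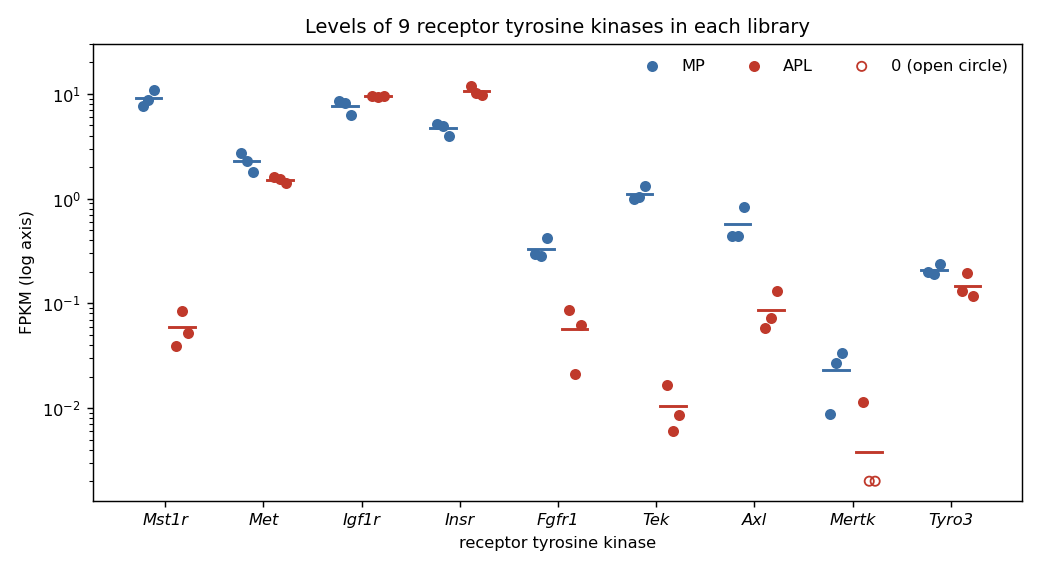
FPKM of the 9 receptors in each library on a log axis, with blue points for the 3 MP libraries, red points for the 3 APL libraries and bars for the group means; open circles at the bottom mark a value of 0. Mst1r stood highest in MPs and at a mean of 0.059 FPKM in APL progenitors, while Igf1r and Insr were at 9.37 FPKM or more in every APL library.

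Met, the receptor for hepatocyte growth factor, kept most of its level. Its scaled fragments were 538, 448 and 342 in MPs and 312, 299 and 279 in APL progenitors. Every APL library lay below every MP library, but by a small margin. The log2 fold change of -0.55 (SE 0.16, limma, adjusted p = 0.0137) passed the test and missed the fold threshold at 1.47-fold, with a 95% interval of -0.92 to -0.19. Met became a call without MP replicate 3 (-0.73) or APL replicate 1 (-0.59). Within a library, the FPKM of Mst1r was 2.78 to 6.14 times that of Met in MPs and 0.0243 to 0.0558 times that of Met in APL progenitors. The sister receptors thus exchanged places, with Met above Mst1r in every APL library.

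Insr, the insulin receptor, was the 1 receptor called higher. It had 1428, 1389 and 1091 scaled fragments in MPs and 3306, 2862 and 2769 in APL progenitors, with no overlap. The log2 fold change was 1.20 (SE 0.12, limma, adjusted p = 2.1e-05), or 2.29-fold. Insr lies on chromosome 8, whose 778 genes tested had a median log2 fold change of 0.48 against -0.13 for the genes of other chromosomes. Set against the chromosome 8 median, the difference of Insr was 0.72, and 20.1% of the genes on that chromosome had a higher value. The part of the chromosome in the change of Insr was not tested.

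Igf1r, the receptor for insulin-like growth factor 1, had 2818, 2720 and 2090 scaled fragments in MPs and 3186, 3147 and 3202 in APL progenitors. The groups did not overlap, and the lowest MP library was the one that also had the least Met and Insr. The log2 fold change of 0.33 (SE 0.11, limma, adjusted p = 0.024) was below the fold threshold, with a 95% interval of 0.08 to 0.58. In FPKM, Insr stood at 0.607 to 0.629 of Igf1r in the MP libraries and at 1.03 to 1.24 of it in the APL libraries, so that Insr was the more abundant of the pair in every APL library.

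Fgfr1, a receptor for fibroblast growth factors, was low in MPs and lower in APL progenitors. Its scaled fragments were 36.5, 36.2 and 53.2 in MPs and 10.6, 2.6 and 7.41 in APL progenitors. The groups did not overlap, although the APL libraries differed among themselves. The log2 fold change was -2.58 (SE 0.43, limma, adjusted p = 6.8e-04), and the call was lost on FPKM (-0.33). Fgfr1 also lies on chromosome 8, where 5.66% of the genes tested had a lower value. Its change thus ran against that of the chromosome, and it stood -3.06 from the chromosome median on the log2 scale.

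Tek, the angiopoietin receptor of endothelial cells and blood stem cells, was close to absent from the APL progenitors. The MPs had 143, 149 and 188 scaled fragments, and the APL libraries had 2.36, 0.867 and 1.23, which stood for 2, 1 and 1 fragments. All 3 APL libraries were under the floor of 3 fragments, so the difference is given as at least 48.9-fold lower, with the floor averaged over the APL libraries (limma, adjusted p = 3.0e-07). The sum of the endothelial markers moved in the same direction, from 23.7 to 27.6 FPKM in MPs to 4.16 to 5.45 in APL progenitors, with 6 of 7 tested called lower. Most of the MP sums came from Pecam1 (11 to 13.8 FPKM) and Tie1 (8.85 to 9.05 FPKM). Cdh5, which defines endothelial cells, had at most 3 fragments in every MP library and went the other way (1.07), without a call. It had at most 0.937 scaled fragments in MPs and 1.18 to 3.47 in APL progenitors. Stem cell markers summed to 10 to 14.7 FPKM in MPs and to 2.4 to 3.02 in APL progenitors. Of the 6, 5 were called lower, among them Hlf and Slamf1. Ly6a was called higher (0.68), but it encodes Sca-1, which the MPs were sorted to lack. The part of such cells in the difference of Tek was not tested.

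Axl, a TAM receptor, had 63.7, 65.7 and 126 scaled fragments in MPs and 8.25, 10.4 and 18.5 in APL progenitors. The groups did not overlap, and the third MP library held about as much as the other two together. The log2 fold change was -2.69 (SE 0.37, limma, adjusted p = 2.0e-04), and the call was lost on FPKM (-0.52). Tyro3, its sister receptor, had 20.6, 20 and 26.2 scaled fragments in MPs and 14.1, 20.8 and 12.3 in APL progenitors. These values overlapped, and the log2 fold change of -0.49 (SE 0.28, limma, adjusted p = 0.152) had a 95% interval of -1.14 to 0.15 and turned to 0.15 under quantile normalization. In FPKM, Axl was 2.21 to 3.5 times Tyro3 in the MP libraries and 0.376 to 1.11 times it in the APL libraries.

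Mertk, the TAM receptor of macrophages that clears dying cells, was at the limit of detection. It had 0.937, 2.86 and 3.61 scaled fragments in MPs and 1.18, 0 and 0 in APL progenitors, at most 4 fragments before scaling, and the groups overlapped. It passed the threshold (limma, adjusted p = 0.0444), but no fold is given because the mean of neither group exceeded the floor, and the call was lost without APL replicate 2 or 3 (-1.14 each). Macrophage markers summed to 14.3 to 18.9 FPKM in MPs and 51.4 to 52.7 in APL progenitors but did not move together. Of the 9 tested, 4 were called higher, including Cd68, and 3 lower, including C1qa, a complement gene of tissue macrophages, with a median log2 fold change of -0.90, or -0.67 with 1 gene at its bound. Marco had at most 3 fragments in every library of both groups.

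The order of the receptors changed between the groups. Compared per transcript length, MPs ran from Mst1r (9.09 ± 1.66 FPKM, SD, n = 3) and Igf1r (7.66 ± 1.19), whose ranges overlapped, through Insr (4.7 ± 0.651), Met (2.27 ± 0.487), Tek (1.12 ± 0.171), Axl (0.57 ± 0.226), Fgfr1 (0.333 ± 0.0738) and Tyro3 (0.209 ± 0.0256) to Mertk (0.0231 ± 0.0129). Below Igf1r, no 2 neighbours in the MP order overlapped. In APL progenitors the order was Insr (10.6 ± 1.12), Igf1r (9.49 ± 0.107) and Met (1.52 ± 0.105), each above the next in every library. Tyro3 (0.148 ± 0.0397), Axl (0.0873 ± 0.0386), Mst1r and Fgfr1 (0.0566 ± 0.0332) followed, each overlapping its neighbour, and Tek and Mertk came last.

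The summed level of the 9 receptors was 25.8 to 26.2 FPKM in the MP libraries and 21.1 to 23.4 in the APL libraries. Mst1r made up 29.4% to 42.3% of that sum in MPs and 0.167% to 0.399% in APL progenitors. Igf1r and Insr together held 39.8% to 52.6% in MPs and 91.1% to 91.7% in APL progenitors. The makeup of the sum thus passed from Mst1r, Igf1r and Insr together to the insulin receptor pair alone, with Met behind it.

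The third MP library stood at 1 end of its group for most receptors. It had the highest Mst1r, Tek, Fgfr1, Axl, Mertk and Tyro3 of the 3 MP libraries and the lowest Met, Igf1r and Insr. Its summed stem cell, erythroid, endothelial, stromal and macrophage markers were also the highest of the MP libraries. Erythroid markers bear on Mst1r because a form of the receptor is known from erythroid progenitors, and the study lists megakaryocyte and erythroid precursors among the MPs. These markers summed to 1439 to 1900 FPKM in MPs and to 12.1 to 22.8 in APL progenitors. Most of the MP sums came from Car1 (1206 to 1677 FPKM). All 5 erythroid markers tested were called lower, with Klf1 at -7.57 and Epor at -6.93 on the log2 scale. The part of these cells in the difference of Mst1r was not tested.

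Of 49 other receptor tyrosine kinases listed, 38 had a row and 27 were tested, and 15 of these were called lower and 10 higher (55.6% and 37.0%, beside 24.4% and 21.7% of all genes). Their median log2 fold change was -1.01. Epha2, Epha4, Ephb2 and Ephb4 passed the filter only through the MP libraries, and Pdgfra only through the APL libraries. The direction of each was therefore set by the filter. With at least 1 scaled fragment required in all 6 libraries, 17 of the other receptor kinases were tested, 9 called lower and 8 higher. In that setting, 2599 genes were lower and 2637 higher among all 12442 tested. Mst1r, at -7.12, stood next to Ryk, a Wnt co-receptor with 1343, 1535 and 1658 scaled fragments in MPs and 9.43, 10.4 and 14.8 in APL progenitors (-6.93, SE 0.19, limma, adjusted p = 1.6e-08). Tek and then Flt3, a receptor of early progenitors, followed (-5.83 for Flt3, SE 0.18, limma, adjusted p = 2.8e-08). Receptors under the floor in APL progenitors, Tek among them, have no upper limit to their fold, so their place beside Mst1r in this order is not fixed.

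Relatives of the 9 receptors moved in both directions. Tie1, the sister of Tek, fell by 3.57 on the log2 scale, and Fgfr3, a sister of Fgfr1, was at least 2.53-fold lower. Of the receptors for vascular endothelial growth factor, Kdr was at least 7.65-fold lower, while Flt1 rose by 6.14 on the log2 scale, from 48.6 to 59.9 scaled fragments in MPs to 3757 to 4224 in APL progenitors, and Flt4 rose by 3.44. Ephrin receptors were at least 12.5-fold (Epha2), 8.66-fold (Ephb4), 3.86-fold (Epha4), 3.57-fold (Epha1) and 3.39-fold (Ephb2) lower, all under the floor in APL progenitors, whereas Ephb6 (1.64) and Epha7 (1.12) rose. Csf1r (-1.81), the receptor of the monocyte growth factor M-CSF, Lmtk2 (-1.58), Ptk7 (-1.26) and Pdgfrb (-1.01) were called lower, as was Kit (-0.85). Ddr2 (5.30), a collagen receptor that shares its locus with 3110045C21Rik so that fragments could be divided between them, Erbb3 (2.81), Lmtk3 (1.65), Ddr1 (1.42) and Aatk (1.21) were called higher, and Pdgfra was at least 2.05-fold higher. The call of Lmtk3 ended without APL replicate 1. Pdgfra no longer passed the filter, and so was not tested, when any 1 APL library was left out. The same held for Epha2, Epha4, Ephb2 and Ephb4 when any 1 MP library was left out, so their calls were not retested there.

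**Figure D2:**
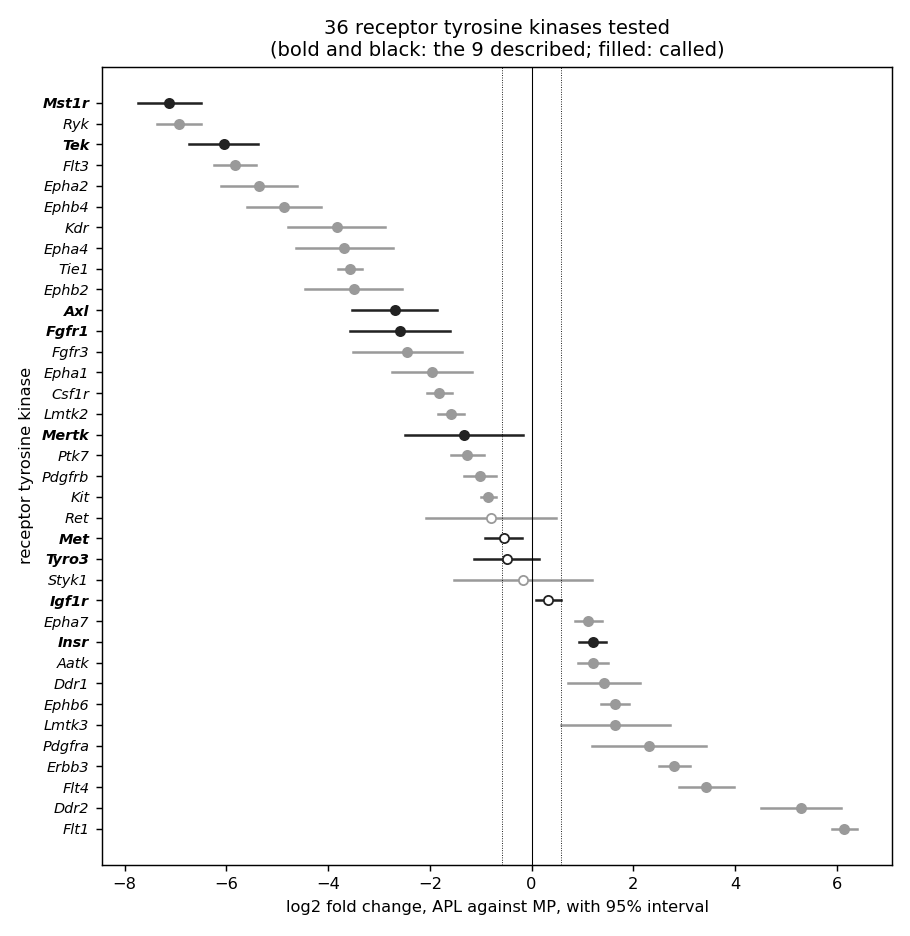
Log2 fold changes of the 36 receptor tyrosine kinases tested, APL against MP, with 95% intervals, ordered from lowest to highest; the 9 receptors described are in bold and black, filled points were called and dotted lines mark a 1.5-fold change. Mst1r (-7.12) is the lowest and Flt1 (6.14) the highest, with Met, Tyro3 and Igf1r as open points near 0.

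Ligands were read in the same libraries, since a progenitor can express the ligand of its own receptor. Of 28 ligand genes of the 9 receptors, 8 were tested, 2 were called lower and 2 higher. These shares, 25% each, stood beside 24.4% lower and 21.7% higher among all genes tested. Mst1, the ligand of Mst1r, moved opposite to its receptor. It had 18.7, 12.4 and 15.3 scaled fragments in MPs and 1004, 1265 and 1191 in APL progenitors, a log2 fold change of 6.14 (SE 0.18, limma, adjusted p = 2.3e-08). Within a library the ratio of Mst1 to Mst1r in FPKM was 0.0229 to 0.0411 in MPs and 253 to 439 in APL progenitors. Hgf, the ligand of Met, held 229 to 264 scaled fragments in MPs and 242 to 248 in APL progenitors, which gave a log2 fold change of 0.01 (SE 0.11).

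Angpt1, the activating ligand of Tek, moved with its receptor. It had 2099, 2514 and 2906 scaled fragments in MPs and 16.5, 19.1 and 30.9 in APL progenitors, a log2 fold change of -6.80 (SE 0.23, limma, adjusted p = 3.9e-08). It lies on chromosome 15, whose genes tested had a median 0.58 above that of other chromosomes, so its change ran against that of its chromosome. Fgf3, a ligand of the fibroblast growth factor receptors, had 85.2, 85.7 and 91.1 scaled fragments in MPs and at most 1.23 in APL progenitors, at least 26.6-fold lower. Pros1, a ligand of Tyro3 and Mertk, rose from 122, 134 and 173 to 451, 544 and 531 (1.83, SE 0.15, limma, adjusted p = 8.7e-06), while Gas6, the ligand of Axl, had 6.56 to 18.9 in MPs and 4.71 to 9.54 in APL progenitors and was not called. Igf1, the ligand of Igf1r, had at most 6.66 scaled fragments in any library.

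**Figure D3:**
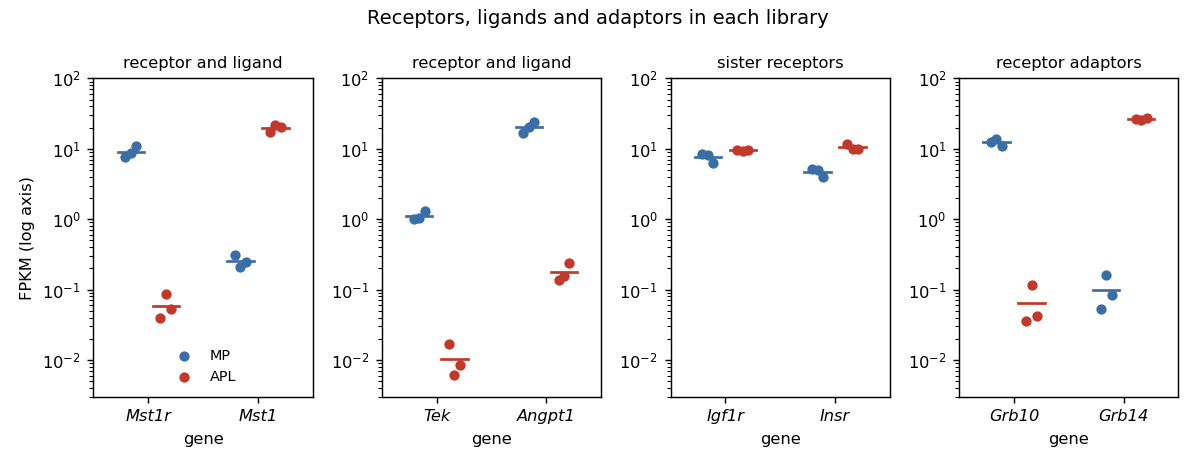
FPKM per library on log axes for Mst1r and Mst1, Tek and Angpt1, Igf1r and Insr, and Grb10 and Grb14, with blue points for MPs, red points for APL progenitors and bars for group means. Mst1r and Mst1 cross in opposite directions, Tek and Angpt1 are both lower in APL, Insr passes Igf1r, and Grb10 and Grb14 cross.

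Mst1r and Mst1 lie on the same chromosome, 160052 bases apart. The 8 genes between them, taken after the values were seen, had fitted log2 fold changes from -3.33 to 1.19, with 3 called lower and 1 higher. Camkv, the neighbour on the Mst1 side at 15536 bases from Mst1r, had 6.66 to 10.8 scaled fragments in MPs and 0 in each APL library, at least 2.82-fold lower. Mon1a, the neighbour on the other side at 3749 bases, was not called (0.44, SE 0.13). In the locus nearest to Mst1, Gmppb was higher (1.19, SE 0.11), while Amigo3 (-0.23) and Rnf123 (-0.54) were not called. The 3 genes share this locus, so fragments could be divided among them. Which of them lies nearest to Mst1 cannot be read from it. Apart from Camkv, whose fold has no upper limit, no gene between the pair differed as much as either end.

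**Figure D4:**
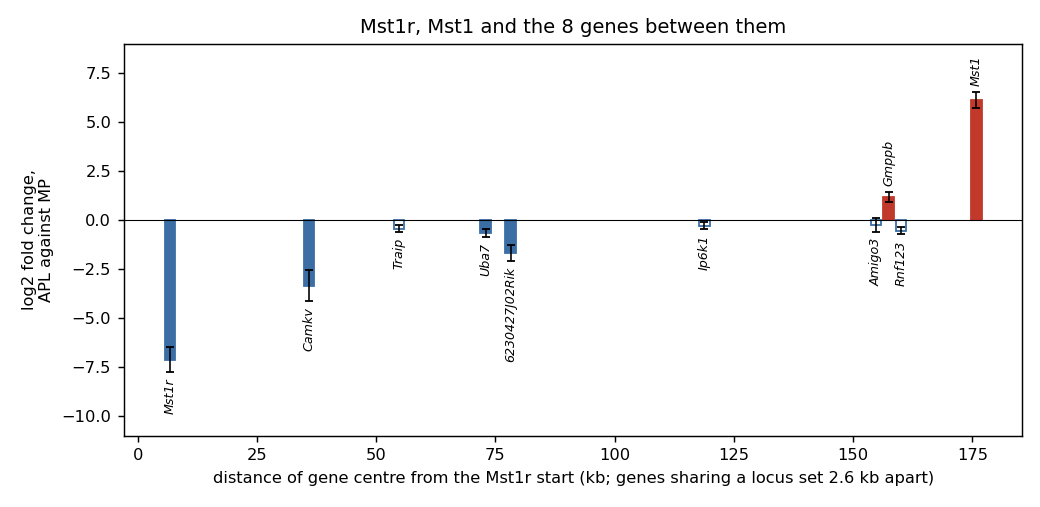
Log2 fold changes, APL against MP, of Mst1r, Mst1 and the 8 genes between them against distance from the start of Mst1r in kilobases, with 95% intervals; filled bars were called, blue bars lower and red bars higher. The bars at both ends (-7.12 and 6.14) are longer than all bars between them (-3.33 to 1.19), of which that of Camkv, at 0 in every APL library, depends on the pseudocount.

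The nearest gene on each side of the 9 receptors gave 17 neighbours. Of the 16 tested, 1 was called lower, 5 higher and 10 were not called, beside 24.4% lower and 21.7% higher among all genes tested. The neighbours of Tek, Axl and Tyro3 were not called or not tested. Lrrc19 and Eqtn beside Tek, and Cyp2s1 beside Axl, had at most 3 fragments in every library, so no difference could be read from them. Hnrnpul1, 1779 bases from Axl, had a log2 fold change of -0.08 (SE 0.08), and Letm2, 2775 bases from Fgfr1, had -0.41 (SE 0.18). The neighbour of Insr, A430078G23Rik, was higher by 0.81 (SE 0.10), and that of Fgfr1 on its other side, Tacc1, by 0.98 (SE 0.09), both on chromosome 8. Cav2 (2.26), beside Met, and Tmem87b (0.93), beside Mertk, were called higher next to receptors with negative values, and 4833412C05Rik, beside Igf1r, was at least 1.6-fold higher.

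Of 13 genes that cut, shed or degrade receptors and their ligands, or inhibit those proteases, 9 were tested, 3 called lower and 3 higher (median 0.08). That is 33.3% each way, beside 24.4% lower and 21.7% higher among all genes tested. Mst1 and Hgf are made as inactive precursors. Hpn (hepsin), a protease known to cleave both, had 680, 665 and 823 scaled fragments in MPs and 10.6, 11.3 and 11.1 in APL progenitors (-5.91, SE 0.16, limma, adjusted p = 1.7e-08), and the related protease St14 (matriptase) fell by 0.99. The inhibitors of these proteases, Spint2 (0.83) and Spint1 (1.79, at most 9.54 scaled fragments), and the urokinase gene Plau (1.11) rose. Adam10, a protease that sheds receptors from the surface, fell by 0.61. The call of Adam10 ended without MP replicate 2, and that of Spint1 without MP replicate 2 or without APL replicate 1 or 2.

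Of 30 co-receptors and binding proteins, 24 were tested, 14 called lower and 3 higher (58.3% and 12.5%, beside 24.4% and 21.7% of all genes tested). Their median log2 fold change was -1.09, or -0.97 with 5 genes set at the bound that the floor allows. Igf2r, which takes up insulin-like growth factor 2 without a kinase domain, had 921, 898 and 768 scaled fragments in MPs and 28.3, 34.7 and 27.2 in APL progenitors (-4.80, SE 0.15, limma, adjusted p = 3.0e-08). Its locus is shared with Airn and Mas1, between which fragments could be divided. The binding proteins Igfbp4 (-0.87) and Igfbp7 (-1.34) were also lower. Both bind insulin-like growth factors outside the cell, the ligands that Igf1r reads.

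Several co-receptors of Fgfr1 and Met are carriers of heparan sulfate, a sugar chain that holds fibroblast growth factors and Hgf at the cell surface. Sdc1 (at least 35.8-fold), Gpc3 (at least 22.2-fold) and Sdc4 (at least 4.05-fold) were under the floor in APL progenitors, and Sdc2 (-5.19) and Sdc3 (-3.62) fell, whereas Gpc4 rose by 1.54 and Gpc1 (-0.48) was not called. Of the enzymes that build the chain, Hs6st1 (-1.75), Ndst2 (-1.50), Ndst1 (-1.31) and Ext1 (-0.88), were lower, while Ext2 (0.58) and Hs2st1 (-0.02), which also build it, were not called. Fgfrl1 (-2.80), a fibroblast growth factor receptor without a kinase, was lower. Sdc4 no longer passed the filter, and so was not tested, when any 1 MP library was left out. Plxnb1, a partner of Met, was at least 2.09-fold lower. Nrp1 (2.31) and Nrp2 (2.49), co-receptors of vascular endothelial growth factor, rose.

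All 27 adaptors that dock on the active receptors were tested, with a median log2 fold change of 0.33. Of these, 1 was called lower (3.7%, beside 24.4% of all genes) and 9 higher (33.3%, beside 21.7% of all genes). The largest differences among adaptors with a mean of at least 100 scaled fragments were Sh2b2 (1.11), which binds Insr, Plcg2 (1.09), Plcg1 (-0.98), which binds Fgfr1, and Gab3 (0.97), which was 61.3 to 76.2 in MPs and 111 to 153 in APL progenitors. Irs2, the docking protein of Insr and Igf1r, was chosen after its value was seen and rose from 168, 234 and 188 to 389, 377 and 351 scaled fragments (0.93, SE 0.14, limma, adjusted p = 3.9e-04).

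Of 33 inhibitors, 30 were tested, 10 called lower and 12 higher (33.3% and 40%, beside 24.4% and 21.7% of all genes tested). Among those with a mean of at least 100 scaled fragments, the 2 largest differences were in Grb10 and Grb14, related adaptors that bind Insr and Igf1r and inhibit them. Grb10 had 1797, 1965 and 1596 scaled fragments in MPs and 4.71, 16.5 and 6.17 in APL progenitors, a log2 fold change of -7.64 (SE 0.37, limma, adjusted p = 2.6e-07). Grb14 had 2.81, 8.57 and 4.51 scaled fragments in MPs and 1386, 1355 and 1465 in APL progenitors, a log2 fold change of 7.90 (SE 0.30, limma, adjusted p = 7.9e-08). The pair traded places: the ratio of Grb14 to Grb10 in FPKM was 0.00422 to 0.0119 in MPs and 220 to 741 in APL progenitors. Dok2 (-2.99), a docking protein that restrains RAS, and Socs2 (2.12), an inhibitor of cytokine receptors, came next among genes past that mean.

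Of 11 genes known to follow ERK activity, 10 were tested, 4 called lower and 3 higher (40% and 30%). Their median was -0.35, or -0.19 with 2 genes at their bounds. Etv5 (-2.72, SE 0.21) and Egr1 (-1.40, SE 0.31) fell and Ier3 (1.52, SE 0.22) rose. Dusp6, a phosphatase of ERK, had 697 to 767 scaled fragments in MPs and 541 to 694 in APL progenitors and was not called, and neither was Myc. Over all 6 pathway lists, 34 of 108 genes tested were lower (31.5%) and 32 higher (29.6%), with a median log2 fold change of 0. Among all genes tested, 24.4% were lower and 21.7% higher. Lrig3, Spry4 and Sdc4 passed the filter only through the MP libraries, and Fosl1 only through the APL libraries. With at least 1 scaled fragment required in all 6 libraries, 95 pathway genes were tested, 28 called lower and 30 higher.

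**Figure D5:**
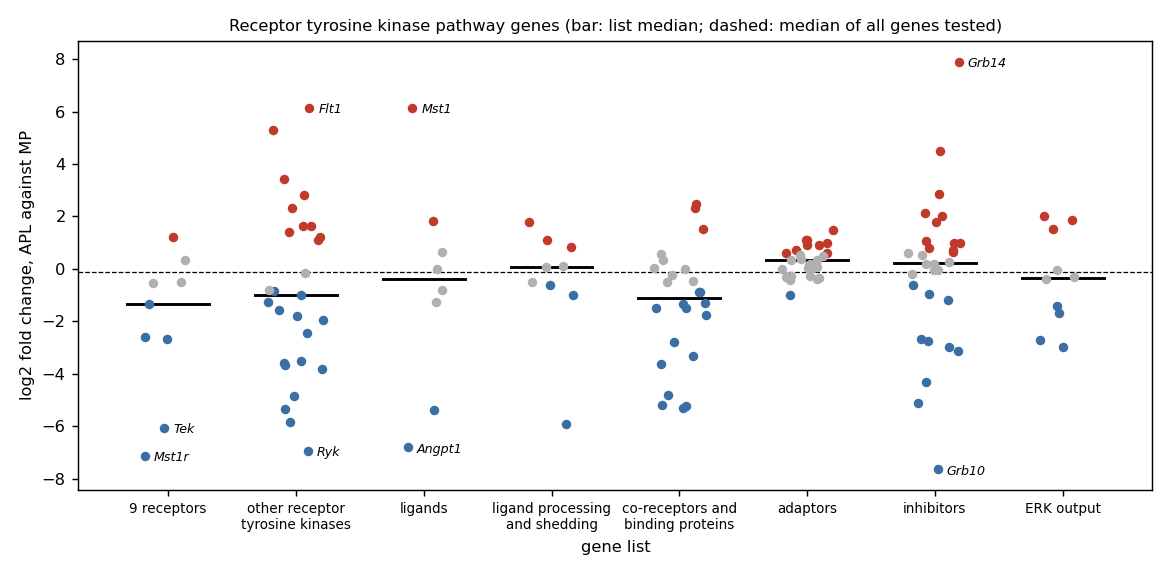
Log2 fold change, APL against MP, of each gene tested in the 9 receptors, the other receptor tyrosine kinases and the 6 pathway lists, with blue points called lower, red points called higher, grey points not called, a black bar for each list's median and a dashed line for the median of all genes (-0.10). The co-receptors (median -1.09) and other receptor kinases (-1.01) lie mostly below the line and the adaptors (0.33) mostly above it, with Grb10 and Grb14 at the ends of the inhibitors.

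The genes whose pattern was most like that of Mst1r were taken among 3894 genes with a mean within 2-fold of its own, by Pearson's r of log2(scaled fragments + 1) over the 6 libraries. They were Tmem109 (r = 0.9999), Meis1 (0.9998), Plxnb2 (0.9997), Slc45a3 (0.9996) and Galnt10 (0.9996). Meis1, a homeobox gene of early progenitors, had 673, 773 and 892 scaled fragments in MPs and 2.36, 6.07 and 3.7 in APL progenitors, so that the third MP library was highest for it as for Mst1r. With 2 groups this far apart the value of r follows mainly from the difference between groups, and 280 of the candidates exceeded 0.99. These correlations describe shared libraries only.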

How the data were processed

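RNA-seq of 3 MP and 3 APL libraries was analysed from 1 deposited table of 16440 genes. Libraries were prepared with a TruSeq RNA protocol from AMBION AM1560 extracts. The submitters' processing notes name CASAVA 1.8, TopHat2 2.0.6 and mm10, while the methods of the study name STAR, mm9, HTSeq and DESeq2. The loci follow GRCm38 with starts counted from 0, since 7057 starts equalled the RefSeq start after 1 was added and 586 as deposited, and 1 was added to every start so that printed coordinates count from 1. The authors deposited FPKM values and a signal in scaled fragments. The scaled value of 1 fragment (0.867 to 1.23) was recovered from the smallest steps, and 85.3% to 88.1% of nonzero values were whole multiples within 0.02, so no count test was used. The tool that made the table is not given in the sources used here.

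Groups were taken from the sample titles. Genes with at least 1 scaled fragment in at least 3 of 6 libraries (14595) were tested with limma 3.58.1 (lmFit, eBayes with trend) in R 4.3.3 on log2(scaled fragments + 1). P-values were adjusted by the Benjamini-Hochberg method across the 14595 genes. Fold changes of low genes are understated on this scale. A gene under 1 scaled fragment in every library of a group could pass the filter only through the other group, which fixed its direction beforehand. Genes were called at an adjusted p under 0.05 and a fold change over 1.5. A group with at most 3 fragments in every library was treated as at the floor, averaged over its libraries, which covers counting error only. A two-sided exact permutation test of 3 against 3 cannot go below p = 0.1. P-values measure the spread between these libraries. Where a value is given in parentheses after a gene without a unit, it is the log2 fold change. The receptors and gene lists were chosen with earlier results of these data known. All 9 receptors are named, then every called gene of the receptor kinase, ligand, processing and co-receptor lists, and up to 4 called genes with the largest changes and a mean of at least 100 in the adaptor, inhibitor and ERK lists. Promoter windows came from RefSeq (GRCm38.p6). Protein sequences were not used here. The test was checked on simulated data. Results were recomputed under 17 alternatives in filter, pseudocount, scaling, unit, weights, replicate block and left-out libraries. Figures used matplotlib 3.10.9 in Python 3.11.15.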

Additional observations from a re-analysis of the deposited data

How the results depend on the processing

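The count of receptors called higher stayed at 1 under all 17 alternatives, and Mst1r kept its direction and call in each, from -7.39 to -3.24 on the log2 scale. The 5 receptors called lower became 3 when at least 1 scaled fragment was required in all 6 libraries, which removes Tek and Mertk because each had an APL library under 1, and 2 on FPKM, where Axl (-0.52) and Fgfr1 (-0.33) fell short of the fold threshold, their FPKM being small beside the pseudocount of 1, and Mertk did not pass the filter of 0.1 FPKM. The other receptor kinases called lower were 15 as reported, 9 under the same filter and 8 on FPKM, and those called higher were 10 and 6 on FPKM. Leaving out each library in turn gave 4 to 5 receptors lower and 1 to 1 higher. Among the other receptor kinases it gave 11 to 15 lower and 8 to 10 higher. The fall to 11 came from Epha2, Epha4, Ephb2 and Ephb4, which no longer passed the filter without an MP library. For pathway genes the ranges were 29 to 34 lower and 29 to 33 higher. Mertk lost its call with a pseudocount of 5 (-0.46, adjusted p = 0.0733, limma), under quantile normalization and without APL replicate 2 or 3, and it no longer passed the filter without MP replicate 2, MP replicate 3 or APL replicate 1. Ext2 was called higher with median-ratio scaling, and Adam10 lost its call there. Igfbp7 and Plxnb1 lost theirs under quantile normalization and on FPKM, and St14, Sdc4, Spint1, Lmtk3, Pdgfra, Ddr1 and Epha7 on FPKM. Met became a call under scaling to the same total (-0.68), voom weights (-0.68), without MP replicate 3 (-0.73) and without APL replicate 1 (-0.59). Tyro3 turned to 0.15 under quantile normalization, and the cause was not tested. Scaling to the same total and voom weights shifted the median of all genes by -0.13 and raised the share of calls that were lower from 52.9% to 60.8% and 60.9%.

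The labels number the libraries 1 to 3 in both groups. Same-numbered libraries had correlations of deviations of 0.261, -0.133 and 0.255, and the second MP library correlated best with the first APL library (0.357). Deviations from a mean of 3 libraries constrain one another, so these values cannot decide whether the libraries were paired. With the replicate block, 4 receptors were called lower, Mertk being lost (adjusted p = 0.062, limma), and 1 higher, and the other receptor kinases stayed at 15 lower and 10 higher.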
